A study of Mus musculus with 2 samples.

Results

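EC 3 is the smallest of the endothelial populations that the authors annotated in single cells of the mouse aorta, and the question here was how its cells with many lymphatic marker transcripts differ from its cells with almost none. Each EC 3 cell was placed by its summed raw UMIs (unique molecular identifiers, each standing for 1 captured transcript) of Prox1, Lyve1, Mmrn1 and Reln. Cells with at least 4 such UMIs are called positive, cells with 0 or 1 are called low, and cells with 2 or 3 (called middle) were left out of the comparison. Of 5451 cells in all, 94 were EC 3: 58 were positive, 27 low and 9 middle, so the comparison covers 85 cells. The cells came from 2 droplet libraries, 1 per aorta, from 2 wild-type females of the C57/BL6 strain at the age of 12 weeks on chow diet, and all cells of this report share that genotype, diet and age. The aortas had their perivascular fat dissected away and were digested with enzymes for 1 hour, and no selection for endothelial or lymphatic cells is described. The 2 libraries are told apart by the barcode suffix, and which suffix belongs to which animal is not given in the sources used here, so they are called library 1 and library 2.

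Lymphatic endothelium lines the vessels that return fluid, lipids and immune cells from tissue to the blood, and in large arteries it runs in the outer wall. Prox1 is the transcription factor that sets and keeps lymphatic identity, Lyve1 is a hyaluronan receptor of lymphatic capillaries, Mmrn1 encodes the secreted glycoprotein multimerin, and Reln encodes reelin, a matrix protein released by lymphatic endothelium. Initial lymphatic capillaries release the chemokine Ccl21 to guide dendritic cells and lymphocytes inward, while collecting lymphatics carry valves whose cells depend on Foxc2, Gata2 and connexins.

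The 4 marker genes chose the classes, so their values are a description with no test. The summed UMIs per positive cell ran from 4 to 90, with a median of 25.5, while 20 low cells had 0 and 7 had 1. Next to the limits, 7 low cells had 1 UMI, 6 middle cells had 2, 3 middle cells had 3 and 3 positive cells had 4. In library 1, 5 of the 9 low cells were among those with 1 UMI. In positive cells Mmrn1 was seen in 55 of 58, Lyve1 in 51, Reln in 45 and Prox1 in 29. The low cells held 3 Prox1 UMIs and 4 Lyve1 UMIs in all, and no Mmrn1 or Reln. All 4 genes were seen together in 19 positive cells, 3 of them in 29, 2 in 7 and 1 in 3.

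**Figure D1:**
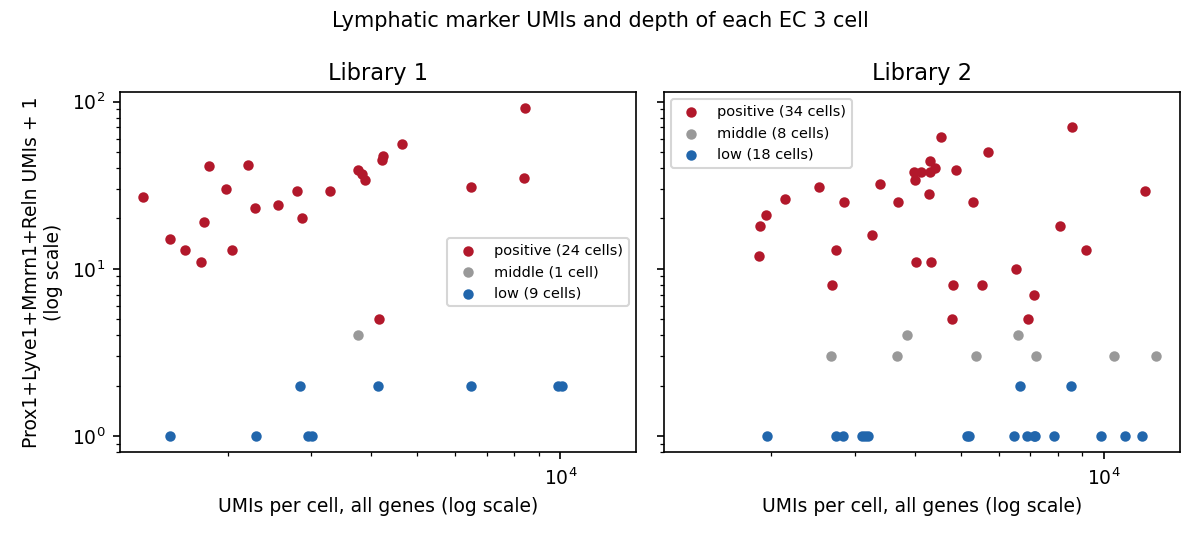
Each point is 1 EC 3 cell; the x axis gives its total UMIs and the y axis its summed Prox1, Lyve1, Mmrn1 and Reln UMIs plus 1, both on log scales, with library 1 on the left and library 2 on the right. Positive cells reach 90 summed UMIs, and low cells lie at 0 or 1 over the whole range of depth.

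A UMI threshold moves with depth, and here the low cells were the deeper ones. The median was 5192 UMIs in low cells (3003 in library 1, 6557.5 in library 2) and 3996.5 in positive cells (2833.5 and 4305.5). The summed UMIs available to the comparison were 242701 for positive cells (81871 and 160830) and 154083 for low cells (43194 and 110889). In library 1, 70.6% of EC 3 cells were positive (95% exact binomial interval 52.5 to 84.9, 24 of 34), and in library 2, 56.7% (43.2 to 69.4, 34 of 60). The low cells were 26.5% (12.9 to 44.4) and 30.0% (18.8 to 43.2), and the intervals, which cover counting error only, overlap between the libraries. When each cell was thinned to 1900 UMIs, which left out 8 positive cells and 1 low cell, 39 of the 50 remaining positive cells were still positive, 6 became middle and 5 low, and all 26 low cells stayed low. Outside EC 3 the same threshold was passed by 2 of 425 EC 1 cells, 0 of 229 EC 2 cells (which allows a share of up to 1.31%) and 2 of 2159 smooth muscle cells. It was also passed by 230 of 443 cells of the annotated population Mono 1, which the rule does not take in.

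Positive and low cells differed in a broad set of genes that the rule did not use. UMIs were summed per class and library and fitted with edgeR's quasi-likelihood test with library as a term. Of 1516 genes tested, 103 were higher in positive cells (6.79% of genes tested) and 127 higher in low cells (8.38%), which is 15.2% in either direction, at a Benjamini-Hochberg adjusted p under 0.05. Of these 230 genes, 228 moved in the same direction in both libraries, and all 230 differed by at least 2-fold in the fit. The genes were chosen by a fit to these same 2 libraries, so neither count is independent support. The median log2 fold over all genes tested was -0.03. Log2 folds below are positive against low, with a standard error from the fit to 6 sums of 2 libraries. This error is moderated across genes and does not measure the spread of the fold between the libraries. The classes were drawn from UMIs of the same cells, so the p-values describe a split made within these data. Other settings changed the number called, most of them together with the number tested. DESeq2 was run on 12123 genes and gave some of them no adjusted p, and such genes count as not called by it. It called 62 genes, all of them among the 230 and in the same direction. Low cells restricted to 0 marker UMIs gave 139 of 1694, and 390 of 2339 were called when the library 1 middle sum, which holds 1 cell, was left out.

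**Figure D2:**
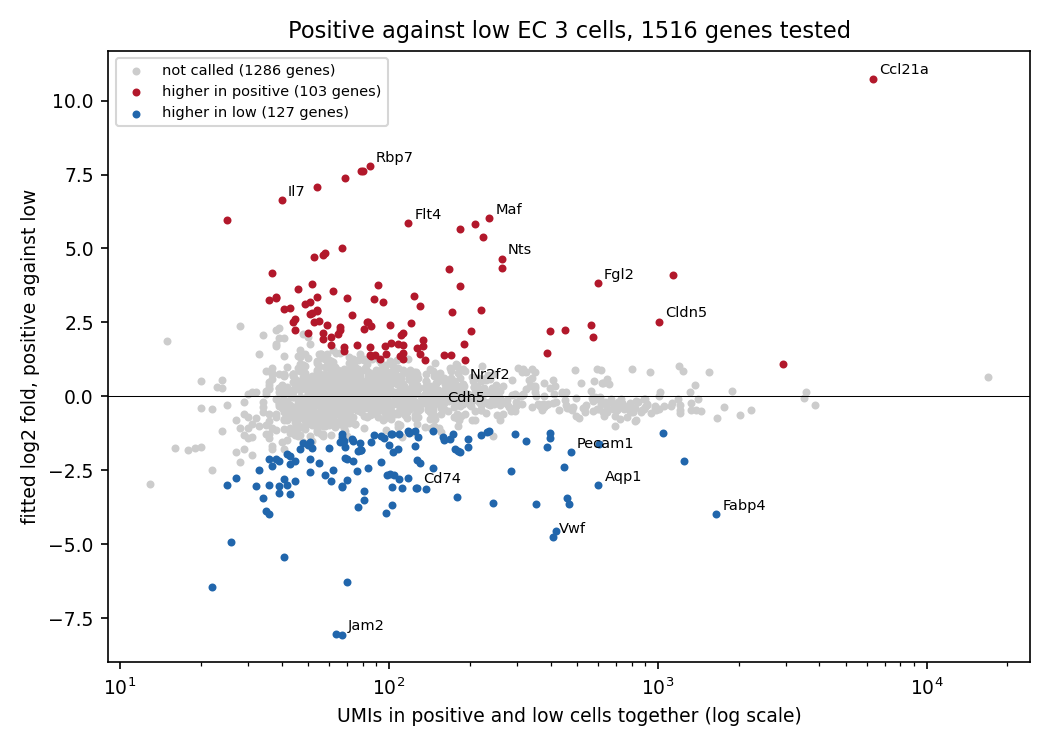
Each point is 1 of 1516 genes; the x axis gives its UMIs in positive and low cells together (log scale) and the y axis the fitted log2 fold of positive against low. The 103 genes higher in positive cells lie above 0 with Ccl21a at the top right, the 127 higher in low cells lie below, and the fitted folds of genes with 0 to 3 UMIs in a class depend on the prior count.

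The chemokine Ccl21a gave the largest difference. It had 3183 UMIs in positive cells of library 1 and 3115 in library 2, against 1 UMI in the low cells of each library. As CPM, the count per 1000000 UMIs of the class in that library, this was 38878 and 19368 in positive cells and 23.2 and 9.02 in low cells, so the classes did not overlap. The ratio was 1999 (95% counting interval 553.2 to 16512; edgeR quasi-likelihood adjusted p = 3.76e-12). Among single cells 49 of 58 positive cells and 2 of 27 low cells had a Ccl21a UMI (80% and 0% after thinning to 1900 UMIs). In smooth muscle, which should lack the gene and has a median of 6025 UMIs, 7.97% of cells had one, so the low cells were at that background.

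Part of the Ccl21a signal cannot be assigned to 1 gene copy. In GENCODE M21 (GRCm38), Ccl21a lies on chromosome 4 from 42772860 to 42773993 on the minus strand and the copy Gm21541 from 41903610 to 41904743 on the plus strand, each with 4 exons. Their annotated transcripts are both 870 bases long and differ at 6 positions, and their 402 coding bases differ by T84A and C194T, counted from 1 at the start codon with the base of Ccl21a given before the position. The stretch from coding position 164 to 224, which holds position 194 in exon 3, is printed because it shows how little separates the copies. Position 194 is in capitals.
Ccl21a: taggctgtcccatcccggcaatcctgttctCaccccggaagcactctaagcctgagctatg
Gm21541: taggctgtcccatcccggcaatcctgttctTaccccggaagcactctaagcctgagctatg
Gm21541 was itself called higher in positive cells, with 38 and 31 UMIs in the 2 libraries against 0 and 0 in low cells, which is at least 14.6-fold higher against a floor of 3 counts over the class (adjusted p = 4.74e-05, edgeR). The deposited table also lists Ccl21b.1 with 15 and 5 UMIs and Gm13304 with 2 and 2 UMIs in positive cells and 0 in low cells. The build and annotation the authors counted on are not given in the sources used here, so how the counts are divided among these copies is uncertain.

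Lymphatic genes outside the rule went mostly with the positive class, but not as a block. From a list of 37 lymphatic identity genes, 26 passed the filter on low counts: 13 were higher in positive cells, 1 was higher in low cells (Pgm5) and 12 were not called, and the list's median log2 fold was 1.86. Over all genes tested, 6.79% were higher in positive cells and 8.38% in low cells. Of the 26, 2 (Pdpn and Adgrg3) had no UMI in low cells and passed the filter on their positive sums. This list was chosen with earlier results of these data known and is not independent evidence of its direction. Pdpn, the membrane glycoprotein podoplanin that binds the platelet receptor Clec2, had 79 UMIs in 30 positive cells and none in low cells (CPM 354.2 and 310.9 against 0 and 0), which is at least 16.7-fold higher (adjusted p = 2.19e-05, edgeR). The adhesion receptor gene Adgrg3 had CPM of 427.5 and 279.8 against 0 and 0, at least 16.9-fold higher (adjusted p = 1.14e-05, edgeR). In both genes every positive sum lay above every low sum.

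Maf, a transcription factor of lymphatic endothelium, stood at 1441 and 721.3 CPM in positive cells and 23.2 and 9.02 in low cells, a ratio of 74.3 (95% counting interval 20.3 to 617; adjusted p = 2.33e-06, edgeR). Fgl2, a fibrinogen-like secreted and membrane protein, was at 3518 and 1772 CPM against 162.1 and 162.3, a log2 fold of 3.84 ± 0.44 (adjusted p = 1.59e-06, edgeR). Nts, the precursor of the peptide neurotensin, was at 610.7 and 1287 CPM against 46.3 and 36.1 (4.66 ± 0.54, adjusted p = 1.59e-06, edgeR). The groups did not overlap in any of these genes. Thy1 (3.39 ± 0.51), the guidance factor genes Ntn1 (1.74 ± 0.44) and Sema3d (2.14 ± 0.60) and the transcription factor gene Tbx1 (2.12 ± 0.56) were higher in positive cells as well, although Ntn1 and Sema3d lost their call in 3 settings each and Tbx1 in 2. So were the polarity gene Pard6g and Dtx1, a Deltex ubiquitin ligase of the Notch pathway.

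Several genes that mark lymphatic or venous endothelium did not pass the test between the classes. Nr2f2, the transcription factor that sets venous identity and cooperates with Prox1, was at 793.9 and 373.1 CPM in positive cells and 324.1 and 450.9 in low cells (log2 fold 0.43 ± 0.43, adjusted p = 0.605, edgeR), and the classes overlapped. Nrp2, a co-receptor for VEGF-C, was at 598.5 and 335.8 against 347.3 and 450.9 (0.10 ± 0.40, adjusted p = 0.915). Sox18 (-0.26 ± 0.53), Itga9 (0.11 ± 0.47), Lbp (0.56 ± 0.37), Gpm6a (0.77 ± 0.38) and Stab1 (0.28 ± 0.36) did not pass either. A gene that missed the threshold is not thereby shown to be equal in the classes.

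In level, 4 of those uncalled genes were higher in both EC 3 classes than in the other endothelial populations. This is a description with no test, because the populations were clustered on the same counts, and the 4 were picked after their values were seen. Nr2f2 was at 387.5 ± 89.6 CPM in low cells (mean and SD, n = 2 libraries) and 583.5 ± 297.6 in positive cells, against 8.31 ± 2.43 in EC 1 and 78.0 ± 15.3 in EC 2. Lbp, the gene of lipopolysaccharide-binding protein, was at 431.3 ± 53.3 in low and 626.6 ± 177.9 in positive cells, against 2.65 ± 0.91 and 7.16 ± 1.75. Gpm6a, a neuronal-type membrane glycoprotein gene, was at 244.6 ± 14.3 and 409.9 ± 27.0, against 14.0 ± 5.77 and 0.839 ± 1.19. Nrp2 at 399.1 ± 73.3 in low cells and 467.1 ± 185.8 in positive cells was likewise above EC 1 (1.16 ± 0.69) and EC 2 (225.4 ± 24.4).

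**Figure D3:**
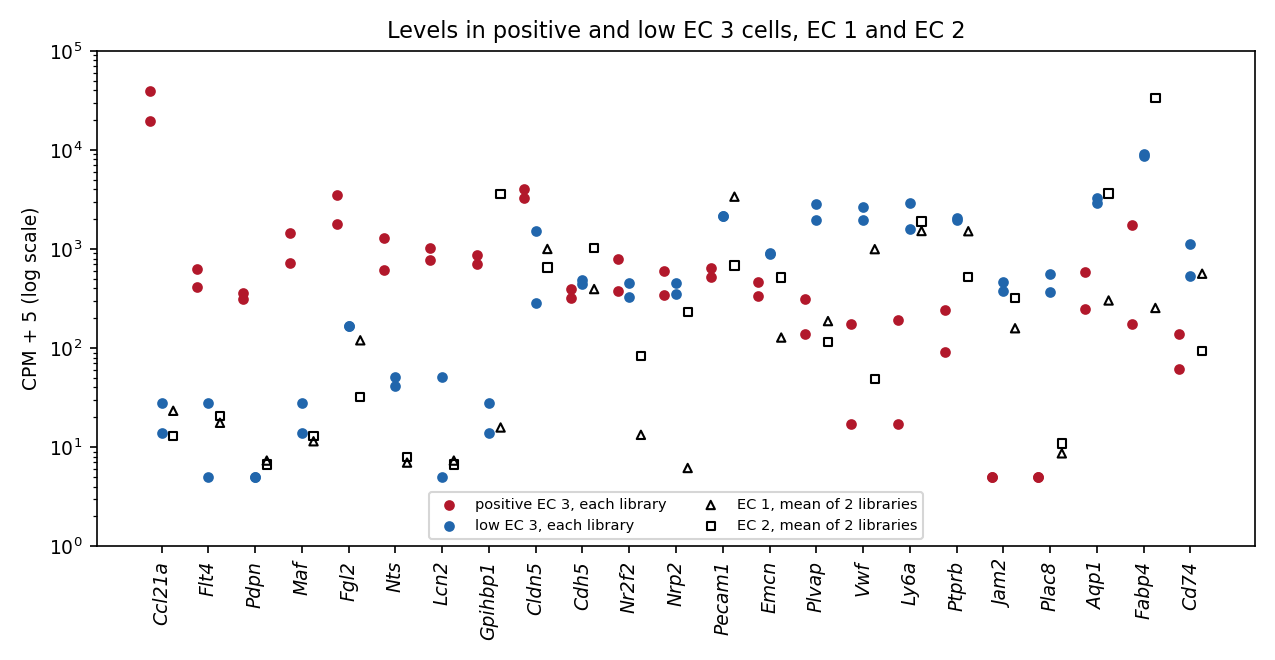
For each gene on the x axis, filled points give CPM plus 5 (log scale) in positive and low EC 3 cells of each library, and open symbols the mean of 2 libraries in EC 1 and EC 2. Ccl21a to Gpihbp1 are higher in positive cells and Pecam1 to Cd74 are higher in low cells. Nr2f2 and Nrp2 overlap between the classes. Cdh5, which was not called, lies lower in positive cells without overlap.

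Flt4 and Kdr, both receptors for VEGF-C, were higher in positive cells. Flt4, the main lymphatic receptor for VEGF-C, had 51 and 66 UMIs in positive cells against 1 and 0 in low cells, or 622.9 and 410.4 CPM against 23.2 and 0, a ratio of 74.3 (95% counting interval 13.1 to 2959; adjusted p = 5.12e-06, edgeR). Of 9 genes tested from the VEGF-C and Tie signalling list, 3 were higher in positive cells (Flt4, Kdr and Angpt2), 1 was higher in low cells (Ptprb) and 5 were not called (Nrp2, Tek, Tie1, Ephb4 and Ptpn14). The shares over all genes tested were 6.79% higher in positive cells and 8.38% higher in low cells. Kdr was at 427.5 and 342.0 CPM against 254.7 and 108.2 (1.25 ± 0.42, adjusted p = 0.0463), and it missed the threshold in 7 of the alternatives tried. Angpt2, a Tie receptor ligand needed for lymphatic development, had 10 and 24 UMIs against 0 and 2 (ratio 10.8, 95% counting interval 2.77 to 92.7; adjusted p = 0.0322). Ptprb, a phosphatase that acts on the Tie2 receptor, ran the other way at 85.5 and 236.3 CPM against 2060 and 1975 (-3.65 ± 0.47, adjusted p = 6.25e-06, edgeR). None of 4 genes tested from the adrenomedullin list (Adm, Calcrl, Ramp2 and Ackr3) was called by edgeR or by DESeq2; Calcrl and Ackr3, 2 of the 4, had an unadjusted p under 0.05.

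Of 9 valve and collector genes tested, 2 connexin genes were higher in positive cells, Clu was higher in low cells and 6 were not called, beside 6.79% and 8.38% of all genes tested in these directions. The call of Clu was lost in 7 settings. Gja4 had 10 and 46 UMIs in positive cells and 1 and 0 in low cells (ratio 35.6, 95% counting interval 6.13 to 1429; adjusted p = 0.00053, edgeR), and Gja1 had 22 and 30 against 0 and 1 (ratio 33.0, 5.67 to 1329; adjusted p = 0.000617). Of the 46 Gja4 UMIs, 1 cell held 20 and another held 8, a concentration that the counting interval does not allow for. Foxc2, a transcription factor of valve cells, was at 73.3 and 186.5 CPM against 92.6 and 9.02 (1.97 ± 0.84, adjusted p = 0.131). Cldn11, a claudin found in valve cells, was at 97.7 and 161.7 CPM against 92.6 and 0 (2.25 ± 0.86, adjusted p = 0.085). Both passed the threshold when the 1-cell middle sum of library 1 was left out, at 2.07 and 2.32. In library 1 alone Foxc2 was lower in positive cells, by -0.24 on the log2 scale.

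Among genes for immune cell traffic, calls went in both directions. Of 7 tested, Ccl21a and Il7 were higher in positive cells, Jam2 and Vcam1 were higher in low cells and 3 (Cxcl12, S1pr1 and Stab1) were not called. Over all genes tested, 6.79% were higher in positive cells and 8.38% in low cells. Il7, the cytokine that keeps lymphocytes alive, had 17 and 23 UMIs in positive cells and 0 in low cells, at least 8.46-fold higher (adjusted p = 0.00407, edgeR), and this call was lost with positive cells restricted to at least 6 marker UMIs and with tertiles of marker UMIs per total UMI as classes. It was seen in 28 of 58 positive cells. Jam2, a junctional adhesion molecule that leukocytes bind, had the opposite pattern, with 0 and 0 UMIs in positive cells and 16 and 51 in low cells, at least 35.2-fold higher in low cells (adjusted p = 1.59e-06, edgeR). Vcam1, a ligand for leukocyte integrins, had 0 and 4 UMIs against 15 and 6 (-2.99 ± 0.99, adjusted p = 0.0431). Its log2 fold was -3.57 within library 1 and -0.80 within library 2, and the call was lost in 3 settings (another size factor, all populations in 1 fit, and no library term). The venular leukocyte adhesion genes Selp (5 UMIs in 4 low cells) and Ackr1 (2 UMIs in 2 low cells) were at 0 in positive cells and too low to test.

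Blood endothelial genes went the opposite way to the lymphatic list. Of 12 tested, 10 were higher in low cells (Flt1, Emcn, Cd34, Plvap, Nrp1, Vwf, Ly6a, Ly6c1, Nos3 and Eng), 1 was higher in positive cells (Kdr) and Cd93 was not called, and the median log2 fold was -2.32. Over all genes tested, 8.38% were higher in low cells and 6.79% in positive cells. This list too was chosen with earlier results of these data known. Emcn, Cd34, Eng and Kdr lost their call in 3 or more settings. Vwf, the platelet-binding von Willebrand factor, had 1 and 27 UMIs in positive cells and 84 and 296 in low cells, or 12.2 and 167.9 CPM against 1945 and 2669 (-4.78 ± 0.57, adjusted p = 2.15e-06, edgeR). It was seen in 9 of 58 positive cells and 24 of 27 low cells, and after thinning in 8% and 88.5%, beside 2.51% of smooth muscle cells. Plvap, which forms the diaphragms of fenestrae and caveolae, was at 134.4 and 310.9 CPM in positive and 1968 and 2823 in low cells (-3.45 ± 0.41, adjusted p = 2.15e-06, edgeR). The surface antigen gene Ly6a was at 12.2 and 186.5 against 1574 and 2877 (-4.55 ± 0.50, adjusted p = 1.59e-06). In each of these genes the low sums lay above the positive sums in both libraries.

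Pan-endothelial genes were present in both classes, and their 20 genes summed to 8843 and 10191 CPM in positive cells and 14400 and 12580 in low cells, against 266.7 and 283.1 in smooth muscle. Of 17 tested, 2 were higher in positive cells (Cldn5 and Kdr), 7 were higher in low cells (Pecam1, Esam, Egfl7, Eng, Emcn, Cd34 and Ptprb) and 8 were not called. The shares over all genes tested were 6.79% and 8.38% in these directions. Cdh5, the cadherin of endothelial junctions, was at 317.6 and 385.5 CPM in positive cells and 486.2 and 432.9 in low cells (-0.34 ± 0.36, adjusted p = 0.635, edgeR). Pecam1, an adhesion molecule of the endothelial border, was at 513.0 and 640.4 CPM against 2130 and 2155 (-1.88 ± 0.39, adjusted p = 0.00134). Esam, another junctional adhesion molecule, followed it (-2.77 ± 0.44, adjusted p = 8.81e-05).

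Cldn5, the claudin of endothelial tight junctions, was higher in positive cells but unevenly between libraries. It was at 3237 and 4048 CPM in positive cells and at 1505 and 279.6 in low cells, so the positive sums lay above the low ones. The fitted log2 fold was 2.53 ± 0.48 (adjusted p = 0.00053, edgeR), and it was 1.09 within library 1 and 3.79 within library 2. The call was lost with low cells restricted to 0 marker UMIs (0.99), without the library term (2.16), with no filter on low counts (2.56) and with tertiles of marker UMIs per total UMI as classes (1.52).

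The cells behind that unevenness can be named, though the UMI limits of 10 for Cldn5 and Ccl21a were chosen after the values were seen and are a description only. Of 27 low cells, 23 had Vwf and under 10 Cldn5 UMIs, 3 had at least 10 Cldn5 UMIs and no Vwf (2 in library 1, 1 in library 2) and 1 had both. Of 58 positive cells, 29 had at least 10 Cldn5 UMIs and no Vwf, 20 had fewer Cldn5 UMIs and no Vwf, 6 had Vwf and under 10 Cldn5 UMIs and 3 had both. The 3 positive cells with at least 2 Vwf UMIs were all in library 2. One of them had 10 Lyve1 UMIs, none of the other marker genes, 94 Fabp4 UMIs and 19 Plvap UMIs. Among the 9 middle cells, 6 had at least 2 Vwf UMIs.

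**Figure D4:**
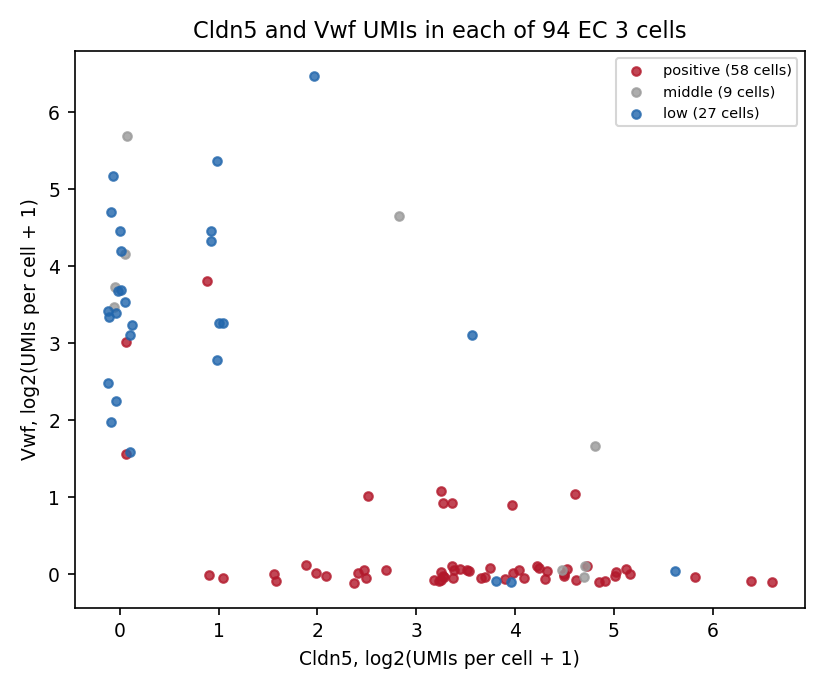
Each point is 1 of 94 EC 3 cells; the x axis gives log2 of its Cldn5 UMIs plus 1 and the y axis log2 of its Vwf UMIs plus 1, with a small random shift to separate points. Low cells lie mostly along the left side with Vwf, positive cells along the bottom without it, and 3 low cells lie among the positive ones.

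A further set of cells cut across the classes. In 44 positive cells Ccl21a reached at least 10 UMIs, and 9 positive cells (1 in library 1, 8 in library 2) had none. Across all EC 3 cells, 13 had under 10 Ccl21a UMIs, at least 10 Cldn5 UMIs and no Vwf: 7 were positive, 3 middle and 3 low. These 13 cells (4 in library 1, 9 in library 2) had a median of 4160 UMIs in all, and the 44 cells (21 and 23) had 3786.5. They differed in the valve and collector genes followed by cell (Cldn11, Foxc2, Gja4, Adm and Clu). These genes were picked after values were seen, and the rest of that list was not compared in this way. The 13 cells held 34 Cldn11 UMIs in 10 cells and 26 Foxc2 UMIs in 10 cells, while the 44 cells held 12 Cldn11 UMIs in 7 cells and 10 Foxc2 UMIs in 7 cells. For Adm, the peptide adrenomedullin, the figures were 105 UMIs in 8 of 13 cells and 9 UMIs in 6 of 44. Of the 105, 1 library 2 cell held 33 and another held 29. Gja4 had 39 UMIs in 8 of the 13 cells and 18 in 10 of the 44, and Clu had 50 in 8 and 19 in 13. Prox1 had 24 UMIs in 8 of the 13 cells and 27 UMIs in 18 of the 44. The 33 EC 3 cells with at least 2 Vwf UMIs (24 low, 6 middle and 3 positive), with a median of 6518 UMIs in all, each had Plvap. They held 3 Cldn11 UMIs and 2 Adm UMIs, but 9 Foxc2 UMIs in 6 cells, 18 Prox1 UMIs in 10 cells and 187 Clu UMIs in 29 cells.

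Calls among genes of capillaries and lipid handling went in both directions. Of 6 tested, 3 were higher in positive cells (Gpihbp1, Cd300lg and Kdr) and 3 in low cells (Fabp4, Fabp5 and Cd36). The shares over all genes tested were 6.79% and 8.38%. Kdr lost its call in 3 or more settings. The median log2 fold was -0.91. Summed over 15 genes, the list was at 2015 and 3358 CPM in positive cells and 10812 and 10452 in low cells. Fabp4 made up most of the low sums. Gpihbp1, which anchors lipoprotein lipase to capillary endothelium, was at 855.0 and 702.6 CPM in positive cells against 23.2 and 9.02 in low cells (ratio 58.1, 95% counting interval 15.9 to 483.3; adjusted p = 1.59e-06, edgeR). Cd300lg, a surface glycoprotein of capillaries, had 18 and 33 UMIs against 0 and 3 (ratio 10.8, 3.49 to 54.1; adjusted p = 0.00311). Outside the list, Rbp7, a retinol-binding protein gene, had CPM of 146.6 and 453.9 against 0 and 0 (at least 18.0-fold higher; adjusted p = 1.14e-05). Fabp4, an intracellular fatty acid carrier, ran the other way at 171.0 and 1729 CPM in positive cells against 9122 and 8675 in low cells (-3.98 ± 0.62, adjusted p = 6.67e-05, edgeR), with a log2 fold of -5.49 within library 1 and -2.32 within library 2. Its background in smooth muscle was 352.8 CPM, and its level in EC 2 was 33307 ± 3331 (mean and SD, n = 2 libraries). Gpihbp1 (3553 ± 1024), Cd300lg (1199 ± 289.2) and Rbp7 (739.3 ± 317.3) were likewise higher in EC 2 than in either EC 3 class. In EC 1 they were at 10.8 ± 1.07, 4.97 ± 2.30 and 2.01 ± 2.84 CPM. The fatty acid translocase gene Cd36 (-3.12 ± 0.46) and Fabp5 (-3.07 ± 0.58) followed Fabp4, as did Aqp1, a water channel at 244.3 and 584.5 CPM against 2894 and 3274 (-3.00 ± 0.47, adjusted p = 6.81e-05).

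MHC class II genes, which present antigen to helper T cells, were higher in low cells in all 4 members tested of 8, beside 8.38% of all genes tested. Cd74, the invariant chain, was at 134.4 and 56.0 CPM in positive cells and 1111 and 532.1 in low cells (-3.09 ± 0.47, adjusted p = 4.74e-05, edgeR). H2-Aa (-2.66 ± 0.43), H2-Ab1 (-2.80 ± 0.46) and H2-Eb1 (-2.82 ± 0.50) were higher in low cells as well, with H2-Eb1 missing the threshold in DESeq2. A Cd74 UMI was seen in 15 of 58 positive cells and 11 of 27 low cells, and in 30.1% of smooth muscle cells, so the share in positive cells was no higher than that background. At least 10 Cd74 UMIs were found in 3 low cells of each library and in no positive cell. Those 6 low cells held 98 of the 107 Cd74 UMIs of the low class, and the other 21 low cells held 9 UMIs, or 91.0 CPM, beside 82.4 CPM over all positive cells. The log2 folds of Cd74, H2-Aa, H2-Ab1 and H2-Eb1 were -3.13, -2.43, -2.87 and -3.01 without the cells that held at least 3 UMIs of macrophage, lymphoid or pericyte genes or were called doublets.

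Other genes with the largest folds towards low cells came from several functions. Plac8 had 0 and 0 UMIs in positive cells and 24 and 40 in low cells, at least 33.6-fold higher in low cells (adjusted p = 1.71e-06, edgeR), with CPM of 458.2 ± 137.8 in low cells, 3.65 ± 0.50 in EC 1 and 5.88 ± 8.31 in EC 2. Procr, the endothelial protein C receptor of the anticoagulant pathway, was at 12.2 and 49.7 CPM against 555.6 and 586.2 (-3.95 ± 0.49, adjusted p = 3.58e-06). The endocytic gene Ehd4 (-3.63 ± 0.41), the secreted factor Cytl1 (-3.65 ± 0.48), the endothelial lectin Clec14a (-3.75 ± 0.50) and the protease Bace2 (-3.67 ± 0.55) were also higher in low cells. AU021092 and Tmem88 had 1 UMI each in positive cells against 69 and 40 in low cells, and Slc6a6, the taurine transporter, and Cdc42ep3, an effector of the GTPase Cdc42, had 3 each against 33 and 32.

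Positive cells in turn held Lcn2, a siderophore-binding lipocalin, at 1014 and 771.0 CPM against 46.3 and 0 (ratio 65.7, 95% counting interval 18.0 to 546.2; adjusted p = 1.59e-06, edgeR). Its level in EC 1 and EC 2 was 2.32 ± 1.39 and 1.68 ± 2.37 CPM. Stmn2, a microtubule-destabilising protein, was at 769.5 and 621.8 CPM against 23.2 and 36.1 (4.31 ± 0.55, adjusted p = 5.12e-06). Gmfg, an actin regulator, had 54 UMIs in 28 positive cells and none in low cells, at least 11.4-fold higher (adjusted p = 0.00036), and Pcp4l1 had 57 UMIs against 1.

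The remaining lists are given by their counts, beside 15.2% of all genes tested called in either direction. Of 17 matrix genes tested, 4 were higher in positive cells (Col4a1, Tgfbi, Timp3 and Col18a1) and 5 in low cells (Eln, Mgp, Bgn, Mmrn2 and Fbln2). Of 11 junction genes, Cldn5 and Pvrl2 were higher in positive cells and Esam, Jam2, Pecam1 and Plvap in low cells. Of 12 genes of vesicle and solute uptake, 2 were higher in positive cells (Dab2 and Apold1) and 4 in low cells (Ehd4, Cd36, Slco2a1 and Aqp1). Of 8 flow and vasodilator genes, Nos3, Ptgs1 and Heg1 were higher in low cells. Of 8 haemostasis genes, Serpine2 was higher in positive cells and Vwf and Procr in low cells. Of 7 venous genes, Vwf, Emcn and Vcam1 were higher in low cells, and of 8 arterial genes, Gja4 and Stmn2 were higher in positive cells and Eln, Mgp and Clu in low cells; each of these last lost its call in at least 3 settings. Of 12 immediate early genes, which dissociation can raise, 2 were called, a share near that over all genes (Klf6 higher in positive and Ier2 in low cells), and Fos was not called (-1.22 ± 0.49, adjusted p = 0.106). Of 3 interferon response genes, Ifi27l2a was higher in positive cells (3.73 ± 0.51). No cell cycle gene passed the filter.

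**Figure D5:**
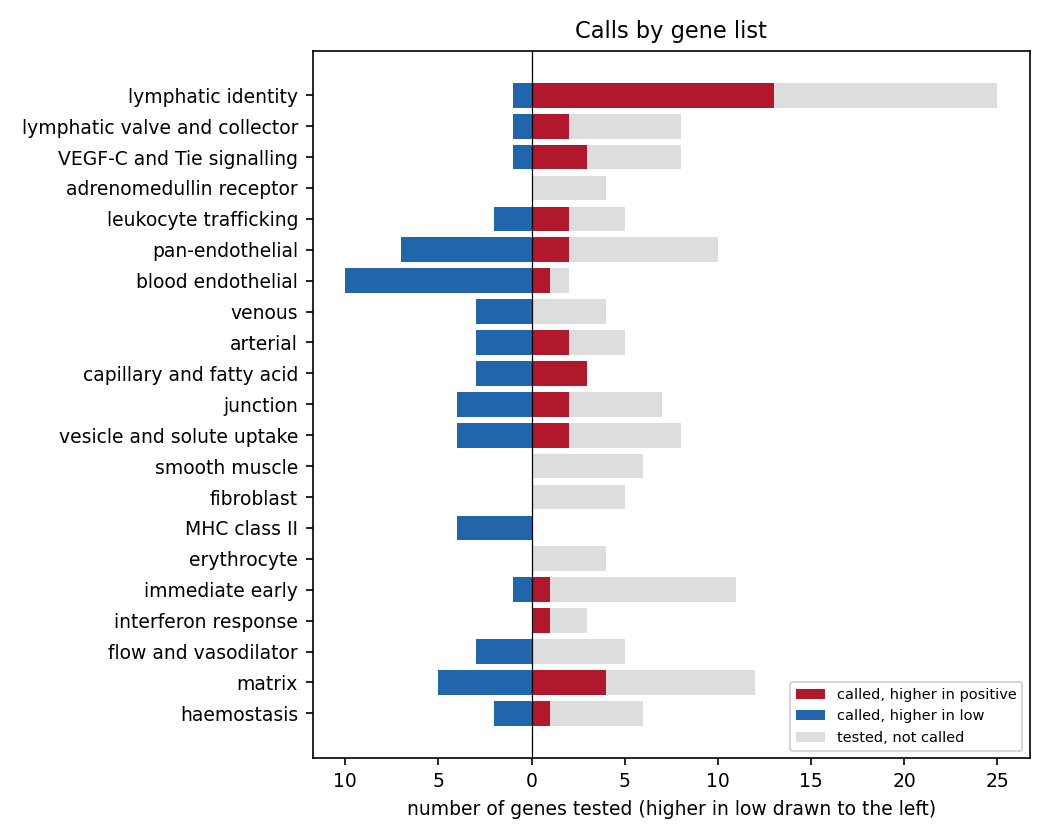
For each gene list, bars count the members tested: called and higher in positive cells (red, to the right of 0), called and higher in low cells (blue, to the left) and not called (grey). The lymphatic identity list holds 13 red members and 1 blue, the blood endothelial list 1 red and 10 blue, and the smooth muscle, fibroblast and erythrocyte lists none of either.

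Of the markers of other cell types, 16 could be tested (6 of smooth muscle, 5 of fibroblasts, 4 of erythrocytes and 1 of macrophages), and edgeR called 0, as did DESeq2, with 0 at an unadjusted p under 0.05. Over all genes tested, edgeR called 15.2%. The summed smooth muscle list was at 2626 and 1219 CPM in positive cells and 2107 and 1226 in low cells, against 46758 and 44240 in smooth muscle itself. The fibroblast list was at 1820 and 1530 against 1505 and 1542. Of its 14 genes only 1 (Pdgfra) was at 0 in both classes, and the list held 395 UMIs in positive and 236 in low cells. The macrophage list of 16 genes was at 977.1 and 273.6 CPM in positive cells and 370.4 and 180.4 in low cells, so positive cells of library 1 stood highest. These sums include Mrc1, which is also in the lymphatic identity list. The list held 124 UMIs in positive and 36 in low cells. Of its genes, 2 were at 0 in positive cells (Cd68 among them) and 5 in low cells. At least 3 UMIs of the list without Mrc1 were held by 5 of 58 positive and 4 of 27 low cells. The T, NK and B cell list held 1 UMI in positive cells and 11 in low cells, with Ptprc, Cd4, Nkg7, Cd79b and Ms4a1 among those at 0 in both. Mesothelial genes held 0 and 2 UMIs, with 7 of 8 at 0 in both classes, and 5 of 12 Schwann cell genes were at 0 in both. At least 3 haemoglobin UMIs were found in 56 of 58 positive and 26 of 27 low cells and in 2118 of 2159 smooth muscle cells. The median share of mitochondrial UMIs was 3.04% in positive and 4.39% in low cells, and that of ribosomal protein genes 12.9% and 17.2%; the part of these 2 shares in the results was not tested. Without the 5 positive and 5 low cells that held at least 3 UMIs of macrophage, lymphoid or pericyte genes or were called doublets (smooth muscle, fibroblast and haemoglobin UMIs were not used), 223 genes were called of 1199 tested, 187 of them among the 230 and in the same direction.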

How the data were processed

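The data are 2 droplet libraries (10x Genomics v2) of whole mouse aorta. The authors deposited counts of UMIs per gene and cell, which the submitters' processing notes ascribe to Cell Ranger 2.1, and a cell type label per cell; the genome build is not given in the sources used here. Cells were already filtered. Doublets were sought with Scrublet through scanpy 1.11.5 (52 and 26 called in the libraries), 12 barcodes occurred in both libraries (1 in EC 3), and no cell was removed for either reason.

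UMIs were summed for positive, middle and low EC 3 cells in each library (6 sums), leaving the 4 marker genes out of the table and library sizes. Genes kept by filterByExpr were fitted with edgeR 4.0.16 (TMM, glmQLFit, glmQLFTest, class and library terms; residual df 2), with Benjamini-Hochberg adjustment over 1516 genes. Taking the spread from these small sums, and not from all populations together, was a choice made for this comparison. A standard error is the fold divided by the root of F. Counting intervals are exact at 95%, and a count of 0 is read as up to 3. Since library is a term, p-values measure the class differences against what remains between the sums of 2 libraries, with the spread moderated across genes, and not the spread between animals.

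The scripts were tested on simulated counts in which 200 genes, each with at least 30 UMIs in the data, were changed. The fit recovered 23% of 2-fold and 83% of 4-fold changes and called 4 of 1078 unchanged genes. Many true 2-fold differences would therefore not be called. The simulated counts used the same dispersion (0.0396) for every gene and the same gene proportions in both libraries. They held no uneven cells within a sum, so the rates in the data may be worse. Named genes were up to 15 per direction by fold among called genes with at least 30 UMIs, up to 4 per list, and a fixed set. Gm21541, Ccl21b.1, Gm13304, Selp, Ackr1, Lbp and Gpm6a, and Plvap and the valve genes by cell, were added after values were seen. Members and lists were chosen with earlier results of these data known. Tools were R 4.3.3, DESeq2 1.42.0 and Python 3.11.15.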

Additional observations from a re-analysis of the deposited data

How the results depend on the processing

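The number of genes called moved by over 1.5 times in 4 settings. DESeq2 called 62 (28 higher in positive, 34 higher in low), low cells restricted to 0 marker UMIs gave 139 (61 and 78), thinning to 1900 UMIs gave 83 of 520 tested (48 and 35), and leaving out the library 1 middle sum, an alternative chosen after seeing the data, gave 390 of 2339 tested (199 and 191). Fitting all populations together gave 156 higher in positive cells, and no filter on low counts gave 81 higher in low cells, with 55.7% of its calls higher in positive cells against 44.8%; thinning gave 57.8%. The cause was not tested. These settings also changed how many genes were tested (12123 with no filter, 9088 with all populations, 1694 with low cells at 0, against 1516). DESeq2 was run on 12123 genes, some of which got no adjusted p. The positive share was 45.9% and the low share 44.7% after thinning, against 61.7% and 28.7%; with 1 library left out they ran from 56.7% to 70.6% and from 26.5% to 30.0%. Library is the replicate block of the fit, since both classes come from the same aortas; with no replicate block 167 genes were called (77 and 90), all among the 230. Of 81 called genes followed by name, 49 kept their call in every setting that tested them, 15 lost it in 1 or 2 settings and 17 in 3 or more: Clu, Kdr, Ier2, Emcn, Apold1, Egfl7, Cldn5, Eln, Fbln2, Cd34, Vcam1, Eng, Ntn1, Mgp, Klf6, Sema3d and Pgm5.

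Of 1418 values for 95 genes followed, 1171 were unchanged in call and direction or moved by no more than 1 standard error, 95 lost the call, 4 gained it and 131 moved by more than 1 standard error, among them 55 genes in library 1 alone and 47 in library 2 alone. The other 17 changed direction, each for a gene not called: with tertiles of marker UMIs per total UMI, Nrp2 (-0.013), Itga9 (-0.15), Adm (-1.86), Acta2 (-0.11) and Dcn (-0.37); after thinning, Adm (-0.35) and Acta2 (-0.078); Acta2 with low cells at 0 marker UMIs (-0.30), without cells with macrophage, lymphoid or pericyte UMIs (-0.26) and with cells weighted equally (-0.29). With 1 library left out at a time the values ran from -0.41 to 0.73 for Nrp2, -0.26 to 1.21 for Nr2f2, -1.26 to 0.26 for Sox18, -0.035 to 0.37 for Itga9, -0.24 to 3.08 for Foxc2, -1.36 to 4.65 for Adm and -0.37 to 0.48 for Acta2. A planned filter that also used haemoglobin left 2 positive cells and 1 low cell and was not run. The filter, with the 1-cell middle sum in the fit, limits the comparison to 1516 of 16971 genes.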
